A study of Ostrinia nubilalis with 6 samples.

Results

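On a gut array of the European corn borer, Ostrinia nubilalis, 77 of 12972 gut probes (0.594%) read at least 3-fold lower in larvae fed the Cry1Ab protoxin than in larvae fed the control diet. They were chosen by the mean difference between the diets, by the absence of overlap between the 3 values of each diet, and by a mean of at least -4 on the control diet, on the log2 scale relative to each array's 75th percentile. Probes in sequence groups of more than 10 and probes that encode the serine protease motifs GDSGG or TAAHC were to be left out, but 0 of the 77 met either exclusion. Since the diet contrast chose the members, their differences between the diets are given as a description, with no test. The same rule turned the other way held for 143 probes.

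Both groups were third-instar larvae of the Bt-susceptible Lee strain, starved for 24 h and then fed artificial diet for 6 h. The control diet held no toxin, and the protoxin diet held 0.25 µg/mL of Cry1Ab protoxin, which had been dissolved in a sodium carbonate buffer. Each of the 6 samples was the RNA of 5 pooled whole guts on 1 single-color array, so that n = 3 pools per diet, and any spread given here is the spread between those pools. According to the methods the larvae had stopped feeding by the time of dissection, so that protoxin and food intake cannot be told apart. In whole guts, fewer cells of a type and less RNA per cell cannot be told apart either.

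Cry1Ab is a crystal protein of Bacillus thuringiensis that is swallowed as an inactive protoxin. Proteases in the alkaline midgut of the larva trim it to the active toxin, which binds receptors on the brush border of the midgut epithelium, inserts into the membrane and forms pores. The midgut is also where the larva digests and absorbs its food, and its epithelium is renewed from stem cells. A 60-base probe reports the RNA that pairs with it, and several probes were designed for most transcripts of this array. The files give each probe a number and a sequence and no gene name, so the members are described by number and by the sequences they share, the tissue could not be checked against marker genes, and no role is given to a member.

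The probe numbers followed the sequences. Of 2589 sets of 2 to 10 gut probes linked by at least 20 identical bases (called overlap groups), 2523 (97.5%) held consecutive numbers. The 77 members had 77 distinct sequences and fell into 51 overlap groups. Members whose numbers lay at most 4 apart are called a run, and there were 28 runs, 8 of them with 5 members, 2 with 4, 4 with 3, 3 with 2 and 11 with a single member. Whether a run is a single transcript is not stated in the files, and members of a run are not independent observations.

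The sequences that carry the results come first. Probes of 2 distant runs, numbered 1392 to 1396 and 10589 to 10591, had differences of at least 8-fold and share stretches of sequence, except ECB_Gut 1392, which is not shown. Their capitals mark the 18 bases common to the first set of 4 and the 26 bases common to the second set of 3.
ECB_Gut 1393: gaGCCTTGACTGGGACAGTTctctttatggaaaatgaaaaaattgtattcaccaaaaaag
ECB_Gut 1394: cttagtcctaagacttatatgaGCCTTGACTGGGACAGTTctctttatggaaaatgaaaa
ECB_Gut 1395: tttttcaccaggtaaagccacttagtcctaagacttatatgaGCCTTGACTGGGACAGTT
ECB_Gut 10589: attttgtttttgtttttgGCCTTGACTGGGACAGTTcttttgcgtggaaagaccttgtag
ECB_Gut 1396: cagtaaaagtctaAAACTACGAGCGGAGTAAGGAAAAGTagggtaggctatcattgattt
ECB_Gut 10590: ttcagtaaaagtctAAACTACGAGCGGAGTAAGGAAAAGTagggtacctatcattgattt
ECB_Gut 10591: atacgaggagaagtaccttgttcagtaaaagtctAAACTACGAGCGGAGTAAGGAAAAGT
The first 3 probes start 20 bases apart along the same sequence, as do ECB_Gut 10590 and 10591. ECB_Gut 1396 and 10590 share 32 bases in a row. The longest stretch that ECB_Gut 10589 shares with ECB_Gut 1393 and 1394 is 20 bases, and with ECB_Gut 1395 it is the 18 bases in capitals.

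For 2 runs of 5 members that all share a stretch, the member with the largest difference is shown, with the bases common to the 5 in capitals (56 for numbers 192 to 196 and 49 for numbers 2202 to 2206).
ECB_Gut 192: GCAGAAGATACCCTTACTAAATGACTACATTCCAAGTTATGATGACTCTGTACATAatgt
ECB_Gut 2206: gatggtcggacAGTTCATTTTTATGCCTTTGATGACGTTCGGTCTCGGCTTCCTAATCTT
One probe is shown for each remaining run of at least 2 members, the one with the largest difference, with the bases common to all members of its run in capitals where there are at least 12 of them. These are 20 bases of ECB_Gut 1482, 54 of ECB_Gut 8486 and 20 of ECB_Gut 12627. Together with the stretches above they give a sequence for 17 runs.
ECB_Gut 1018: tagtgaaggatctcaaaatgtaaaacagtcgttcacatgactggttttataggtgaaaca
ECB_Gut 1458: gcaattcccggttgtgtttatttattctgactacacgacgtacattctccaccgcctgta
ECB_Gut 1482: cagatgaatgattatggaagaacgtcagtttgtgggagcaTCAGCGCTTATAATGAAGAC
ECB_Gut 1516: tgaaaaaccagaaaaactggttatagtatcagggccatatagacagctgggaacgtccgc
ECB_Gut 2836: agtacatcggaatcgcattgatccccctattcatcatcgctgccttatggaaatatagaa
ECB_Gut 3067: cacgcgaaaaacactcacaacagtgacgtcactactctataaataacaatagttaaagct
ECB_Gut 3163: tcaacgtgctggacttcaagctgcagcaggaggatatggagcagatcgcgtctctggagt
ECB_Gut 4096: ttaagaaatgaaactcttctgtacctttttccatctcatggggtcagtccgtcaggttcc
ECB_Gut 4859: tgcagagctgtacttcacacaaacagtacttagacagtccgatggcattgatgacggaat
ECB_Gut 5939: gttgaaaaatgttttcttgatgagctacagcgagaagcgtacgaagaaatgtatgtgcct
ECB_Gut 8486: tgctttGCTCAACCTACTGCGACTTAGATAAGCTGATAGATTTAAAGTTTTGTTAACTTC
ECB_Gut 10663: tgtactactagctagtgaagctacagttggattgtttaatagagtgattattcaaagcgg
ECB_Gut 12627: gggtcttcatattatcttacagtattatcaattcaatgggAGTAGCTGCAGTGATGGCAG
Of the 77 members, 4 held the hexamer AATAAA on the printed strand, which is the usual signal for the cut and polyadenylation of a messenger RNA. It is in capitals.
ECB_Gut 2835: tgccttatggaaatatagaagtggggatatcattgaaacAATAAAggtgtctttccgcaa
ECB_Gut 4095: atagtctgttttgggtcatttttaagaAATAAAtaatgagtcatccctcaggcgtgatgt
ECB_Gut 5937: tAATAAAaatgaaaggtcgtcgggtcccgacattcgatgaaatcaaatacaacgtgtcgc
ECB_Gut 5938: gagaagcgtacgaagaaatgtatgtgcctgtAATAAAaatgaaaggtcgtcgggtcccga
The hexamer was thus in 5.19% of the members and in 8.19% of all gut probes. In the last pair it is the same copy, 30 bases further along in ECB_Gut 5938. A match of 6 letters is a description and not a site.

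As to composition, the GC content of the members had a median of 41.7% (35% to 55%), against 40% over all gut probes. At least 1 of the 3 forward reading frames was free of stop codons over the whole probe in 64 members (83.1%), and in 77.6% of all gut probes. The 4 members of the run 3163 to 3167 had the highest GC content, between 50% and 55%. At the other end, 13 members (16.9%) had a stop codon in every forward frame, among them 3 of the 5 members of the run 1015 to 1019, ECB_Gut 1015, 1018 and 1019.

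Across the set, the log2 difference of protoxin minus control ranged from -1.592 to -4.63, with a median of -2.14, which is 4.4-fold. The median over all gut probes was 0.10. At least 4-fold lower means were found for 47 members and at least 8-fold lower means for 9, and those 9 all belonged to the runs 1392 to 1396, 4094 to 4098 and 10589 to 10591. Of the 9, 4 were not above background on some protoxin array. The smallest gap between the diets, from the lowest control value to the highest protoxin value, was 0.28, the median was 1.23 and the largest was 2.26. In a limma fit over all gut probes, 55 of the 77 were called lower (at least 2-fold, with an adjusted p under 0.05), where 1.23% of all gut probes were called, and nothing is read from that count because the same contrast chose the members. Without protoxin pool 1 that count was 1, without protoxin pool 2 it was 0, and without any one of the other 4 pools it was between 10 and 30. With a normexp background correction the median difference was -1.14, and 23 of the 77 kept a 3-fold lower mean without overlap. Values of all 3 protoxin pools below all 3 control pools, which the rule required, were seen in 11.7% of all gut probes.

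All 77 members were well above background on the 3 control arrays, where the rule had set a lower limit on their mean, and 68 (88.3%) on all 6 arrays. Of the 7995 gut probes with a control mean of at least -4, 99.8% were so on all 6. The other 9 members were above background on 1 or 2 of the 3 protoxin arrays and none was below it on all 3. No member sat at the floor of the table on any array. The median control mean was -1.43 (-3.97 to 3.75). Over all gut probes it was -2.71 (-8.88 to 6.63), but these include probes under the limit of -4 that the rule set. These medians therefore differ in part through the rule. The 75th percentile of the gut probes' signal was 504, 407 and 522 in control pools 1, 2 and 3, and 446, 388 and 325 in protoxin pools 1, 2 and 3. On the control diet 22 members lay above the 75th percentile of their array, and on the protoxin diet 9 did.

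The probe closest to the difference limit from inside was ECB_Gut 6711 at -1.592, followed by ECB_Gut 3068 at -1.610 and 5803 at -1.611. The closest outside were ECB_Gut 5799 and 11652, both at -1.580, and ECB_Gut 10662 at -1.577. At the level limit, ECB_Gut 8483 had a control mean of -3.97 and ECB_Gut 293 one of -3.94, while ECB_Gut 12624 and 12734, both at -4.05, were out. ECB_Gut 5799 and 10662 are neighbours by number of members, and ECB_Gut 12624 and 12734 share sequence with members.

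In what follows a reading is a log2 value relative to the 75th percentile of its array, and a difference is given with its SE over 3 pools per diet. The run 1392 to 1396 had the widest spread on the control diet. ECB_Gut 1394 read 0.21, -5.01 and -1.73 in control pools 1, 2 and 3, and -6.86, -8.01 and -5.56 in protoxin pools 1, 2 and 3. The log2 difference was -4.63 ± 1.68 (SE), or 24.8-fold lower. Control pool 1 was the highest and control pool 2 lay within 0.55 of the highest protoxin pool, so the diets stayed apart by little although the means lay far apart. ECB_Gut 1394 and 1395 were well above background only in protoxin pool 3 among the treated pools, and ECB_Gut 1393 in 2 of the 3, so the folds of these 3 rest partly on values not above background.

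ECB_Gut 1395 read 0.28, -5.38 and -1.78 in control pools 1, 2 and 3, and -6.88, -7.28 and -5.66 in protoxin pools 1, 2 and 3, a log2 difference of -4.31 ± 1.72. ECB_Gut 1393 read 0.84, -3.80 and -1.41 in control pools 1, 2 and 3, and -5.73, -6.58 and -4.57 in protoxin pools 1, 2 and 3, a difference of -4.17 ± 1.46. ECB_Gut 1396, which shares no stretch of 20 bases with those probes, read -0.09, -3.10 and -1.80 in control pools 1, 2 and 3, and -5.04, -6.20 and -5.30 in protoxin pools 1, 2 and 3, a difference of -3.85 ± 0.94. The order of the control pools, 1 above 3 above 2, was the same in all 4. The SD over the control pools was 1.51 for ECB_Gut 1396 and between 2.32 and 2.86 for the others, where the median over the members was 0.36.

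ECB_Gut 1392 read 2.50, 0.18 and 0.57 in control pools 1, 2 and 3, and -0.85, -2.01 and -2.62 in protoxin pools 1, 2 and 3, with a difference of -2.91 ± 0.89. It was above background on all 6 arrays, and protoxin pool 3 was its lowest treated pool, where pool 2 was the lowest in the 4 other probes. Over the 5 members the run mean was -3.97 ± 1.26 lower on the protoxin diet as a log2 difference, or 15.7-fold. Without control pool 1 that mean became 7.73-fold and without control pool 2 it became 32.8-fold.

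The related run 10589 to 10591 had tighter control pools. ECB_Gut 10591 read -0.21, -1.80 and -1.34 in control pools 1, 2 and 3, and -3.72, -5.05 and -4.42 in protoxin pools 1, 2 and 3, a difference of -3.28 ± 0.61 or 9.72-fold lower. ECB_Gut 10590 read -1.89, -1.85 and -1.77 in control pools 1, 2 and 3, and -4.05, -5.13 and -5.43 in protoxin pools 1, 2 and 3, a difference of -3.03 ± 0.42. Its control pools lay within 0.13 of each other, whereas those of ECB_Gut 1396, with which it shares 32 bases, spanned 3.0.

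ECB_Gut 10589 read 0.65, -0.47 and 0.25 in control pools 1, 2 and 3, and -2.08, -3.45 and -3.28 in protoxin pools 1, 2 and 3, a difference of -3.08 ± 0.54. All 3 were above background on all 6 arrays. Protoxin pool 1 was the highest of its diet in each of the 3 probes, as it was in ECB_Gut 1392 and 1396. In ECB_Gut 1393, 1394 and 1395 protoxin pool 3 was the highest. As a mean over the run the difference was -3.13 ± 0.47, or 8.77-fold lower. The probes numbered just before, ECB_Gut 10587 and 10588, belong to the overlap group of ECB_Gut 10589 but did not meet the rule. ECB_Gut 10588 had a control mean of -4.12 and a difference of -2.22 with overlapping diets, and ECB_Gut 10587 had a control mean of -7.52 and a difference of 0.39. Both were above background on only 1 protoxin array.

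The run 4094 to 4098 held 5 probes with no stretch of 20 bases in common and differences between -2.75 and -3.05. ECB_Gut 4096 read 0.08, 0.03 and -1.32 in control pools 1, 2 and 3, and -3.95, -4.64 and -1.78 in protoxin pools 1, 2 and 3, a difference of -3.05 ± 0.98 or 8.3-fold lower. ECB_Gut 4098 read 1.46, 1.03 and 0.92 in control pools 1, 2 and 3, and -1.53, -2.51 and -1.34 in protoxin pools 1, 2 and 3, a difference of -2.93 ± 0.40. The means moved alike and the pools did not.

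In ECB_Gut 4096, protoxin pool 3 stood more than 2 log2 units above the other protoxin pools and only 0.46 below control pool 3. ECB_Gut 4094 read -2.04, -2.46 and -3.44 in control pools 1, 2 and 3, and -6.25, -6.54 and -4.18 in protoxin pools 1, 2 and 3 and had the same high protoxin pool 3 and low control pool 3. ECB_Gut 4095, with AATAAA near its middle, read -3.07, -3.01 and -3.99 in control pools 1, 2 and 3, and -6.58, -6.98 and -4.74 in protoxin pools 1, 2 and 3. These 3 had protoxin SDs of 1.19 to 1.49, and ECB_Gut 4094 and 4095 were above background on only 2 of the 3 protoxin arrays. In ECB_Gut 4097, which read 1.42, 1.16 and 0.90 in control pools 1, 2 and 3, and -1.16, -2.16 and -1.49 in protoxin pools 1, 2 and 3, and in ECB_Gut 4098 the protoxin SD was 0.51 and 0.63 and the gap between the diets exceeded 2. The 5 probes therefore fell into 3 with a high protoxin pool 3 and 2 without one.

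The 4 probes numbered just before the run, ECB_Gut 4090 to 4093, were lower on the protoxin diet without overlap, with differences of -1.26, -1.31, -1.22 and -1.23. Over all gut probes 11.7% were lower without overlap. ECB_Gut 4099 to 4102, numbered just after the run, had means that were higher on the protoxin diet by 0.79 to 0.86.

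The runs 4856 to 4860 and 1458 to 1462 were each 5 probes without a shared stretch of 20 bases. Shorter stretches were shared: 18 bases between ECB_Gut 4857 and both 4856 and 4858, and 15 between ECB_Gut 1459 and 1460. In both runs the 5 probes gave nearly the same difference, where the rule had bounded it on one side. ECB_Gut 4859 read -0.47, -0.35 and 0.39 in control pools 1, 2 and 3, and -2.33, -2.93 and -2.45 in protoxin pools 1, 2 and 3, a difference of -2.43 ± 0.33 or 5.4-fold lower. Over the run 4856 to 4860, the mean difference was -2.36 ± 0.28, with the 5 probes between -2.26 and -2.43. The smallest gap between the diets in any of the 5 probes was 1.68.

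ECB_Gut 1458 read -0.16, -0.56 and 0.03 in control pools 1, 2 and 3, and -2.61, -2.61 and -2.43 in protoxin pools 1, 2 and 3, a difference of -2.32 ± 0.18 or 5-fold lower. The other 4 probes of its run differed by between -2.14 and -2.32, and the run mean was -2.23 ± 0.25. Control pool 3 was the highest of its diet in all 5 probes of the run 1458 to 1462. In the run 4856 to 4860 it was so too, in 5 of 5, and protoxin pool 2 was the lowest of its diet in all 5.

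ECB_Gut 4856 was also the single member with a stretch of 20 bases found on the opposite strand of another gut probe. The 5 probes numbered 5166 to 5170 each hold the reverse complement of the same 20 bases, in capitals here for the member and for ECB_Gut 5166.
ECB_Gut 4856: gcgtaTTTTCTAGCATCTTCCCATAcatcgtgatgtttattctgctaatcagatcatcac
ECB_Gut 5166: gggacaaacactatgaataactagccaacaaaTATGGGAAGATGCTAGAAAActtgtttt
ECB_Gut 4856 read -0.75, -0.50 and 0.01 in control pools 1, 2 and 3, and -2.53, -3.02 and -2.62 in protoxin pools 1, 2 and 3, a difference of -2.31 ± 0.27. The 5 opposite-strand probes had differences of -0.22, -0.20, -0.05, -0.20 and -0.12 and control means between -1.48 and -0.81. The mean of the member was 4.96-fold lower on the protoxin diet.

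The run 1015 to 1019 was a tiled set, each probe starting 20 or 21 bases before the one numbered just below it. ECB_Gut 1018 read 2.57, 1.82 and 3.26 in control pools 1, 2 and 3, and 0.69, -0.38 and 0.48 in protoxin pools 1, 2 and 3, a difference of -2.29 ± 0.53 or 4.88-fold lower. ECB_Gut 1015, with a control mean of 3.69, read 3.71, 2.99 and 4.37 in control pools 1, 2 and 3, and 1.91, 0.80 and 1.74 in protoxin pools 1, 2 and 3, a difference of -2.20 ± 0.53. In all 5 probes the control pools ran 3 above 1 above 2, and protoxin pool 2 was the lowest.

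The signal of ECB_Gut 1015 in control pool 2 was 3195, on the linear scale before the shift, and 671 in protoxin pool 2. The differences of the 5 probes lay between -2.20 and -2.29, and the run mean was -2.26 ± 0.50. One of the 6 spots of ECB_Gut 1019 was marked as an outlier by the scanner software, and its difference was -2.25 ± 0.50.

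The run 2832 to 2836 had control means from 0.13 for ECB_Gut 2835 to 2.73 for ECB_Gut 2832. ECB_Gut 2836 read 1.63, 1.46 and 2.00 in control pools 1, 2 and 3, and -0.30, -0.92 and -0.41 in protoxin pools 1, 2 and 3, a difference of -2.24 ± 0.25 or 4.72-fold lower. Again 1 of its 6 spots was marked as an outlier. ECB_Gut 2832 read 2.44, 2.65 and 3.11 in control pools 1, 2 and 3, and 0.99, 0.50 and 0.88 in protoxin pools 1, 2 and 3, a difference of -1.94 ± 0.25, the smallest of the run. Every probe of the run had protoxin pool 2 lowest and control pool 3 highest.

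The runs 192 to 196 and 2202 to 2206 were each near copies of a single probe. All of them were chosen by the same rule, so the likeness of their differences is a description and no check. ECB_Gut 192 to 196 each start 1 base from the next. ECB_Gut 192 read -2.74, -2.46 and -2.21 in control pools 1, 2 and 3, and -5.08, -4.51 and -4.26 in protoxin pools 1, 2 and 3, a difference of -2.15 ± 0.28 or 4.43-fold lower. The 5 probes had differences between -1.95 and -2.15 and control means between -2.47 and -2.16, so near copies of 1 sequence spanned 0.19 in the difference and 0.31 in the control mean.

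ECB_Gut 2202 to 2206 are 1 base apart except for a step of 8 bases between ECB_Gut 2204 and 2205. ECB_Gut 2206 read -1.57, -1.75 and -0.99 in control pools 1, 2 and 3, and -3.15, -4.07 and -3.59 in protoxin pools 1, 2 and 3, a difference of -2.17 ± 0.35 or 4.5-fold lower, and the 5 probes lay between -1.98 and -2.17. In the run 2202 to 2206 protoxin pool 2 was the lowest in every probe, whereas in the run 192 to 196 protoxin pool 1 was.

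The run 3163 to 3167 stood apart by its pools. ECB_Gut 3163 read -0.98, -1.96 and -3.43 in control pools 1, 2 and 3, and -4.09, -4.20 and -5.34 in protoxin pools 1, 2 and 3, a difference of -2.42 ± 0.82 or 5.35-fold lower. Control pool 1 was the highest and control pool 3 the lowest of their diet in all 4 members, and protoxin pool 3 was the lowest, which held for no other run of 4 or 5 members. ECB_Gut 3165, 3166 and 3167 had differences of -2.13 ± 0.65, -2.21 ± 0.65 and -2.18 ± 0.65. The probe numbered between them, ECB_Gut 3164, read -1.06, -1.63 and -2.13 in control pools 1, 2 and 3, and -2.50, -2.50 and -2.80 in protoxin pools 1, 2 and 3. Its difference of -0.99 was under the limit, without overlap between the diets.

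The run 5937 to 5940 was tiled at steps of 30 or 31 bases. ECB_Gut 5939 read -2.28, -1.99 and -1.12 in control pools 1, 2 and 3, and -3.48, -4.93 and -2.95 in protoxin pools 1, 2 and 3, a difference of -1.99 ± 0.69 or 3.97-fold lower. ECB_Gut 5940 read -1.13, -0.46 and 0.53 in control pools 1, 2 and 3, and -1.86, -3.10 and -1.58 in protoxin pools 1, 2 and 3, a difference of -1.83 ± 0.67. Control pool 3 was the highest of its diet and protoxin pool 2 the lowest in all 4 members, and the gap between the diets, 0.45 to 0.72, was smaller than the difference between protoxin pools 2 and 3. ECB_Gut 5936, one number before the run, had a difference of -1.30, also without overlap.

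The smaller runs lay nearer to the limit. ECB_Gut 12627, of the tiled probes 12625 to 12627, read -3.15, -3.07 and -3.05 in control pools 1, 2 and 3, and -4.44, -4.74 and -5.43 in protoxin pools 1, 2 and 3, a difference of -1.78 ± 0.30. ECB_Gut 12623 and 12624, from the same overlap group, had differences of -1.54 and -1.71, and the second was out only by its control mean. ECB_Gut 1516 read -2.51, -2.79 and -2.87 in control pools 1, 2 and 3, and -4.55, -4.94 and -3.85 in protoxin pools 1, 2 and 3, a difference of -1.72 ± 0.34. ECB_Gut 1519 and 1520 had differences of -1.65 ± 0.19 and -1.71 ± 0.26, and ECB_Gut 1517 and 1518, between them by number, -1.21 and -1.55. So all 5 of these numbers were lower without overlap, and 3 passed the limit.

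ECB_Gut 3067 read -2.95, -3.03 and -2.88 in control pools 1, 2 and 3, and -4.46, -4.58 and -4.69 in protoxin pools 1, 2 and 3, a difference of -1.62 ± 0.08, with the smallest SE of the set. ECB_Gut 3068 and 3069 had differences of -1.61 ± 0.21 and -1.61 ± 0.42, and ECB_Gut 3066 and 3070, on either side, -1.58 and -1.51. ECB_Gut 10663 read -2.43, -2.09 and -2.17 in control pools 1, 2 and 3, and -4.29, -4.54 and -3.80 in protoxin pools 1, 2 and 3, a difference of -1.98 ± 0.24. ECB_Gut 10666 had a difference of -1.64 ± 0.21, and ECB_Gut 10662, 10664 and 10665 differed by -1.58, -1.56 and -1.45. The limit ran through both sets of neighbouring numbers.

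ECB_Gut 1482, which overlaps ECB_Gut 1481, read 3.30, 3.64 and 3.32 in control pools 1, 2 and 3, and 1.76, 1.28 and 2.11 in protoxin pools 1, 2 and 3, a difference of -1.70 ± 0.26. ECB_Gut 1481 had a control mean of 3.75 and a difference of -1.63 ± 0.29. ECB_Gut 1480, from the same overlap group, was just outside at -1.57. ECB_Gut 8486 and 8483, near the lower end of the level range, had differences of -1.85 ± 0.30 and -1.62 ± 0.48. The first of them was above background on only 2 of the 3 protoxin arrays. The other 3 probes of the overlap group, ECB_Gut 8484, 8485 and 8487, differed by -1.58, -1.55 and -1.53.

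Of the 11 members that stood alone, 10 had another probe within 4 numbers whose mean was at least 2-fold lower, and 1 had none. The share of all gut probes with such a neighbour was not counted. Since the numbers followed the sequences, neighbours of a member chosen as low are not independent of it, and nothing is read from this count. ECB_Gut 2025 read 1.56, 0.25 and 1.22 in control pools 1, 2 and 3, and -0.30, -0.99 and -0.90 in protoxin pools 1, 2 and 3, a difference of -1.74 ± 0.45, beside ECB_Gut 2023, 2024, 2026 and 2027 at -1.49, -1.48, -1.44 and -1.36. ECB_Gut 6711 read 0.79, 0.67 and 0.61 in control pools 1, 2 and 3, and -0.83, -1.42 and -0.45 in protoxin pools 1, 2 and 3, a difference of -1.592 ± 0.29, beside ECB_Gut 6710, 6712, 6713 and 6714 at -1.41, -1.26, -1.49 and -1.37. ECB_Gut 647 read 1.15, 0.73 and 0.76 in control pools 1, 2 and 3, and -1.01, -1.31 and 0.02 in protoxin pools 1, 2 and 3, a difference of -1.64 ± 0.43, beside ECB_Gut 644, 645, 646 and 648 at -1.22, -1.10, -1.16 and -1.49. In these 3 places the neighbours named are those that were lower without overlap, as were 11.7% of all gut probes. The other probes within 4 numbers had overlapping diets, with differences from -0.66 (ECB_Gut 6715) to 0.43 (ECB_Gut 2029).

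ECB_Gut 5803 read -2.93, -2.76 and -2.57 in control pools 1, 2 and 3, and -3.91, -4.78 and -4.41 in protoxin pools 1, 2 and 3, a difference of -1.61 ± 0.27, and ECB_Gut 5799 to 5802 lay between -1.33 and -1.58. ECB_Gut 5859 and 12733 were each the one member of an overlap group of 5 whose other 4 probes had control means below -4, with differences from -1.48 to -1.72 around ECB_Gut 5859 and from -1.46 to -1.76 after ECB_Gut 12733. The members themselves had differences of -2.05 ± 0.31 and -1.68 ± 0.22. ECB_Gut 5859, like ECB_Gut 2245, was above background on only 2 of the 3 protoxin arrays. ECB_Gut 2245 had a difference of -1.94 ± 0.45, and ECB_Gut 2242, 2243 and 2244 beside it -1.47, -1.45 and -2.27, the last below the level limit and above background on no protoxin array.

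ECB_Gut 367 had signals of 1075, 1210 and 1371 in control pools 1, 2 and 3, and of 614, 202 and 251 in protoxin pools 1, 2 and 3, on the linear scale before the shift, with log2 means of 1.36 ± 0.24 and -0.27 ± 0.70 (SD), a difference of -1.63 ± 0.43. Its overlap group of 8 probes spans distant numbers, and while ECB_Gut 363 to 366, 185 and 186 differed by between -1.16 and -1.47, ECB_Gut 10108 differed by -0.12. ECB_Gut 8359 read -3.15, -3.19 and -2.16 in control pools 1, 2 and 3, and -4.01, -5.89 and -4.15 in protoxin pools 1, 2 and 3, a difference of -1.85 ± 0.69 that became 2.37-fold from 3.61-fold without protoxin pool 2. ECB_Gut 8358 and 8360 to 8362 differed by between -1.51 and -2.10, with overlapping diets in ECB_Gut 8358.

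ECB_Gut 1606 was the single member without such a neighbour, and is shown for that reason.
ECB_Gut 1606: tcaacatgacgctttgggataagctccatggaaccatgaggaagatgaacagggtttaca
It read 0.44, 0.19 and 0.68 in control pools 1, 2 and 3, and -1.68, -1.67 and -1.60 in protoxin pools 1, 2 and 3, a difference of -2.09 ± 0.14 or 4.25-fold lower. ECB_Gut 1602 to 1605 and 1607 to 1610 had means that were higher on the protoxin diet by 0.45 to 0.69. It shares no stretch of 20 bases with any other gut probe.

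ECB_Gut 293 read -5.64, -2.59 and -3.59 in control pools 1, 2 and 3, and -6.66, -6.0 and -6.62 in protoxin pools 1, 2 and 3, a difference of -2.49 ± 0.92 with a gap of 0.36 between the diets. It was above background in 1 protoxin pool. Without control pool 1 its mean was 10.1-fold lower and without control pool 2 it was 3.51-fold lower, against 5.6-fold with all pools. Its overlap mate ECB_Gut 294 read -6.24, -2.67 and -3.71 in control pools 1, 2 and 3, and -8.33, -5.85 and -8.10 in protoxin pools 1, 2 and 3, and ECB_Gut 289 to 292, with control means above 3, differed by between -1.04 and -1.19.

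The pools of a diet did not share the extremes evenly. Protoxin pool 2 was the lowest of its diet in 57 members (74%) and in 21 of the 28 runs, whereas it was the lowest in 23.4% of all gut probes. Its median over the members was -3.99, against -3.22 in protoxin pool 1 and -3.31 in protoxin pool 3. Control pool 3 was the highest of its diet in 47 members (61%), against 36.1% of all gut probes, and control pool 2 the lowest in 37 (48.1%), against 31.9%. The members' medians were -1.12, -1.75 and -1.12 in control pools 1, 2 and 3. Since members of a run repeat each other, these shares describe the set and carry no test.

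The median SD over the 3 protoxin pools was 0.50 for the members and 0.23 for all gut probes. On the control diet it was 0.36 and 0.31. An SD over 1 was found for 7 members on the control diet and for 7 on the protoxin diet. By asking for no overlap, the rule bounded the spread relative to the difference.

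Over the 17 runs with at least 2 members, the range of the log2 difference inside a run had a median of 0.19 (0.02 to 1.73), where the rule had bounded the difference on one side. The range of 1.73 belonged to the run 1392 to 1396. Outside the members, 26 other gut probes shared an overlap group with a member, and 25 of them had a lower protoxin mean, 19 without overlap between the diets. Over all gut probes 11.7% were lower without overlap, and the median difference was 0.10. The 19 that were above background on all 6 arrays had differences between -0.12 and -1.76, with a median of -1.51. All 7 probes numbered between members of a run were lower without overlap, by -0.99 to -1.58 as log2 differences. Both sets of probes share sequence or numbering with members chosen for this difference, so the counts are a description and carry no test.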

How the data were processed

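Whole-gut RNA of 6 pools of larvae, 3 per diet, was read on 6 single-color arrays, and the diets and replicate numbers came from the sample labels. The authors extracted spot intensities with Agilent Feature Extraction 9.5, which subtracts the background and detrends the signal, and deposited them as scanner output with flags per spot. They also deposited a table with these signals at a floor of 1 and their log2 values after a 75th percentile shift per array, made in GeneSpring. The raw columns equalled the floored scanner signal within a relative difference of 8.7e-07, and the shift of each array differed by at most 0.0011 from its own 75th percentile in log2, taken over 13032 entries (60 of them no gut probes). In the tables, 12 columns of detection calls and the means per diet were not used. All 6 arrays had 1 scan time.

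The members were found on the log2 columns by the rule given above, with Python 3.11.15 and pandas 2.3.3. Differences are protoxin minus control, and an SE combines the variances of the 3 pools of each diet. The counts of calls came from limma 3.58.1 in R 4.3.3 on all 12972 probes, fitted on diet alone, two-sided, with Benjamini-Hochberg adjustment, and the fit was tested on simulated data. With 3 pools per diet, a p-value sets the difference against the spread between pools, which limma draws towards a value shared by all probes. The number of arrays limits the precision. Background flags are those of the scanner output.

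The members and lists were chosen with earlier results of these data known. The naming rule was every overlap group with at least 3 members, then the 10 other groups with the largest mean difference. Other members and all neighbours were named after their values were seen. The rule also gave 1 printed probe per group. The printed set departs from it, and was chosen after the values were seen: sequences shared between runs, 1 probe per run of at least 2 members, probes with AATAAA, an opposite-strand pair and 1 probe without lowered neighbours. Planned links to transcripts by primers or by a reference annotation, gene lists and cell type markers were not analysed here.

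The alternatives were other sources of the values, background corrections, normalizations, floors and filters, blocks, a robust prior, the methods' test, and each pool left out in turn.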

Additional observations from a re-analysis of the deposited data

How the results depend on the processing

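The median log2 difference of the 77 members, -2.14, stayed between -1.95 and -2.45 under every setting tried but the normexp background correction with an offset of 50, where it was -1.14 and 23 members kept a 3-fold lower mean without overlap. Under the other settings 59 to 77 kept it, the fewest without protoxin pool 2. Calls depended on the fit. With the scanner signals, normexp, quantile normalization or a median shift, 108 to 174 probes and 42 to 54 members were called lower. With a floor of 16, the background filter or the robust prior, 193 to 214 probes and 60 to 67 members were. The 159 probes and 55 members called lower became 0 and 0 with no shift between arrays, 0 and 0 with the replicate block, 31 and 24 with the first label number as a block, and 0 and 0 with the methods' test on adjusted p. The first label number opens each sample label, and its meaning is not given there. It was 1 for control pools 1 and 2 and protoxin pool 1, and 2 for control pool 3 and protoxin pools 2 and 3. That block was therefore not balanced between the diets. The methods' test on unadjusted p called 295 probes, and 375 probes passed an unadjusted p below 0.05 and 2-fold in limma. Leaving out one pool gave 0 to 46 probes and 0 to 30 members: 46 and 30 without control pool 1, 15 and 10 without control pool 2, 27 and 22 without control pool 3, 1 and 1 without protoxin pool 1, 0 and 0 without protoxin pool 2, 31 and 21 without protoxin pool 3. Such fits have fewer arrays, and the cause was not tested otherwise. Of all calls 43.8% were lower, against 32.4% with normexp and 52.9% with quantile normalization. The median of all gut probes was 0.10, and -0.22 with no shift. The rule gave 256 probes at a fall of at least 1 log2 unit and 47 at 2. Overlap groups numbered 47 at 15 shared bases and 55 at 30. The slide and scan block could not be run, since the 6 arrays share 1 scan time, and links to a reference annotation were not run. The labels number the pools 1 to 3 in both diets, and the deviations of same-numbered pools from their diet means correlated at -0.03, -0.02 and -0.08 over all gut probes, with no pool correlating best with its own number. With deviations from means of only 3 pools per diet, such correlations cannot decide whether the replicate numbers pair the pools.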
